A study of Sus scrofa with 105 samples.

Results

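Cyclosporine A (CsA) was compared with no treatment in the hippocampus and amygdala of piglets with diffuse traumatic brain injury. The libraries were selected by the brain region and group given in their labels. They comprised 10 from injured animals given CsA and 10 from injured, untreated animals at 1 day, 20 of the 105 small RNA libraries in the series. All animals were female Sus scrofa, and RNA came from fixed, paraffin-embedded tissue in which the hippocampus and the amygdala form a single region. The CsA animals received 20 mg/kg per day intravenously through an infusion pump, with a loading dose 6 hours after injury and an infusion over the next 24 hours, and survived 30 hours. The untreated injured animals of the reference group survived 1 day. No untreated or vehicle-infused injured group at 30 hours was used here, so the drug, the pump and the later time cannot be told apart. For context, the same region gave 15 libraries from untreated injured animals at 6 to 8 days and 18 from untreated sham or naive animals at 0 to 8 days. The labels do not say that each library is a separate animal. The 53 libraries of the region carry 53 different codes in their names, whereas the design text counts 50 subjects. Replicates are taken to be animals; if some are not, n is too large and the p-values measure technical spread in part.

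CsA binds cyclophilins. With cyclophilin A it blocks the phosphatase calcineurin, which keeps NFAT transcription factors out of the nucleus and lymphocytes from being activated. Through cyclophilin D it delays opening of the mitochondrial permeability transition pore, the property for which it has been studied in brain injury. MicroRNAs (miRNAs) are short RNAs that pair with messenger RNAs and lower their translation or stability, and many of them are typical of a cell type, so their levels in bulk tissue also follow its cell content. In bulk tissue, fewer cells of a type and less RNA per cell cannot be told apart.

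The deposited values are read counts per mature miRNA. Library totals ran from 7441683 to 11964550 counts in CsA libraries and from 7074097 to 11870652 in 1 day libraries, with a ratio of means on the log scale of 1.00 (permutation p = 0.971). Of 457 mature names, 299 passed the filter on low counts and were tested, and 158 were not. Levels are given as CPM, counts scaled to a common library size with TMM factors, and differences as edgeR log2 fold changes, CsA minus 1 day, with their standard error (SE). Neuron-enriched miRNAs were abundant in both groups, as the tissue label requires, with a summed level of 41284 to 68647 CPM in CsA libraries and 46825 to 66456 CPM in 1 day libraries. The let-7 family took 73.4% ± 3.45 of counts in CsA libraries and 71.0% ± 2.08 in 1 day libraries (SD, n = 10 each), a difference of 2.39 percentage points (permutation p = 0.0775).

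No miRNA passed the threshold between CsA and 1 day animals. Of the 299 tested, 0% had an adjusted p under 0.05 in edgeR's quasi-likelihood test with Benjamini-Hochberg adjustment, and the smallest adjusted p was 0.108. At an unadjusted p under 0.05 there were 71 miRNAs (23.7%), 39 higher with CsA (13%) and 32 lower (10.7%). limma voom also called 0, with 79 at an unadjusted p under 0.05, whereas DESeq2 called 13, of which 8 were higher and 5 lower, with 74 at an unadjusted p under 0.05. Those higher in DESeq2 were miR-125a, miR-125b, miR-139-3p, miR-149, miR-296-3p, miR-432-5p, miR-92b-3p and miR-99b. Those lower were let-7g, miR-126-3p, miR-16, miR-30e-5p and miR-95. For no miRNA did the 10 CsA values lie apart from the 10 values at 1 day (0%). The median log2 fold change was -0.03, the median size 0.21, and the 5th and 95th percentiles were -0.43 and 0.63. Of the 212 miRNAs with at least 10 CPM in either group, 194 had a 95% interval that lay within a log2 change of 1 in either direction. Over all 299 miRNAs tested, 249 had such an interval (83.3%), and the intervals of the rest reached past it.

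**Figure D1:**
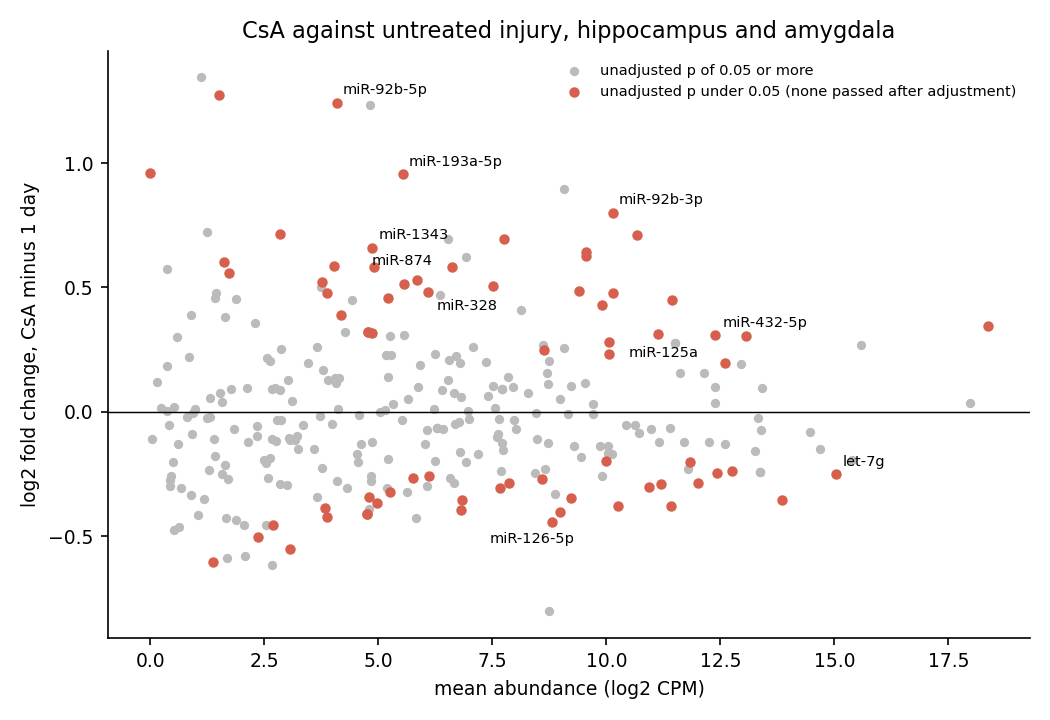
Log2 fold change, CsA minus 1 day, against mean abundance (log2 CPM) for the 299 miRNAs tested in the hippocampus and amygdala; red points had an unadjusted p under 0.05. The median log2 fold change was -0.03 and no miRNA passed after adjustment; the 10 labelled miRNAs are those with the smallest p and at least 10 CPM.

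The absence of calls held for most single libraries left out, but not for all. Without CsA replicate 1, 20 miRNAs had an adjusted p under 0.05, 9 higher and 11 lower. Without 1 day replicate 6, 7 had, 6 higher and 1 lower. Leaving out any other library gave 0. The smallest edgeR adjusted p then ran from 0.0651 (without CsA replicate 2) to 0.254 (without 1 day replicate 8), against 0.108 with all libraries. CsA replicate 1 had the highest summed level of neuron-enriched miRNAs of the 20 libraries, 68647 CPM, and the highest let-7g and miR-9 of its group. CsA replicate 1 was its group's lowest for miR-125a (1921 CPM), miR-92b-3p (466.2 CPM), miR-193a-5p (13.1 CPM), miR-1343 (14.0 CPM) and miR-874 (29.0 CPM). 1 day replicate 6 was its group's highest for these, at 2559, 1528, 31.6, 46.5 and 82.5 CPM. All were higher with CsA (below), so each library lay at the end of its group toward the other group. For miR-126-5p, lower with CsA, 1 day replicate 6 was lowest (401.9 CPM), but CsA replicate 1 was not highest (421.0 CPM). Neither library lay at an end for miR-432-5p. The part of these libraries' make-up in the number of calls was not tested. Both libraries carry codes beginning 13, as do 1 day replicates 3 and 10, whose omission gave 0 calls.

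The 10 miRNAs with the smallest p are described first, none of them past the threshold. Of these, 8 were higher with CsA and 2 lower. miR-125a, a vertebrate relative of the worm lin-4, had 1921 CPM at the lowest, 2551 at the median and 3203 at the highest in CsA animals, against 1448, 2056 and 2559 CPM in 1 day animals. The groups overlapped, although 9 of 10 CsA values lay above the 1 day median. The mean was 2529 ± 390.1 CPM with CsA and 2034 ± 301.4 CPM at 1 day (SD, n = 10 each; log2 0.31, SE 0.09, edgeR adjusted p = 0.108). Without CsA replicate 1 it was 0.34 (adjusted p = 0.0218) and without 1 day replicate 6 it was 0.36 (adjusted p = 0.0229). DESeq2 gave 0.33 (adjusted p = 0.0124).

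Both arms of miR-92b, a miRNA enriched in neural progenitors of the mouse, were among these 10. miR-92b-3p had 466.2 CPM at the lowest, 1269 at the median and 2439 at the highest in CsA animals, against 345.2, 661 and 1528 CPM in 1 day animals (log2 0.80, SE 0.25, edgeR adjusted p = 0.119). miR-92b-5p, the less abundant arm, had 2.18, 14.1 and 36.6 CPM in CsA animals and 2.30, 6.26 and 14.6 CPM in 1 day animals (log2 1.24, SE 0.41, edgeR adjusted p = 0.131). For each arm 9 of 10 CsA values lay above the 1 day median, while the lowest CsA values lay within the 1 day range or, for miR-92b-5p, just under it. Of the miRNAs with at least 10 CPM in either group, miR-4332, with 12.0 ± 6.20 CPM with CsA and 5.14 ± 2.88 CPM at 1 day, was the only other with a log2 difference above 1 (1.23, SE 0.70, edgeR adjusted p = 0.271). It was named after its values were seen, as were miR-10391 (log2 1.27, SE 0.53) and miR-33b-5p (log2 1.34, SE 0.99), which had under 3 CPM in either group. The value of miR-33b-5p hung on single libraries: it was 2.85 without 1 day replicate 10, 0.71 without CsA replicate 4 and 0.59 without CsA replicate 8.

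miR-193a-5p had 13.1, 33.5 and 66.4 CPM (lowest, median and highest) in CsA animals, against 8.21, 20.2 and 31.6 CPM in 1 day animals. The mean with CsA was 1.94 times that at 1 day by the fit (log2 0.95, SE 0.30, edgeR adjusted p = 0.119), and 8 of 10 CsA values lay above the 1 day median. miR-1343 averaged 34.9 ± 13.6 CPM with CsA and 22.1 ± 10.1 CPM at 1 day (SD, n = 10 each; log2 0.66, SE 0.19, edgeR adjusted p = 0.108). miR-328 averaged 79.2 ± 25.7 CPM with CsA and 56.6 ± 16.1 CPM at 1 day (log2 0.48, SE 0.15). For miR-874 the means were 61.1 ± 21.8 CPM with CsA and 42.3 ± 16.6 CPM at 1 day (log2 0.53, SE 0.18). In each of these 3 the lowest CsA value lay inside the 1 day range. Without CsA replicate 1 or without 1 day replicate 6, each of miR-193a-5p, miR-1343, miR-328, miR-874, miR-126-5p and miR-92b-3p passed the threshold, with adjusted p between 0.00594 and 0.0495. miR-92b-5p and let-7g passed only without CsA replicate 1 (adjusted p = 0.0364 and 0.0218). miR-432-5p passed in neither case (adjusted p = 0.0652 and 0.067), and in DESeq2 it and let-7g had an adjusted p of 0.0499. miR-92b-3p and miR-125a passed in DESeq2 as well.

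miR-432-5p, from the imprinted DLK1-DIO3 cluster of miRNAs, was abundant and differed little in size but with a small spread. It had 4027, 5188 and 6325 CPM (lowest, median and highest) in CsA animals and 3428, 4194 and 4845 CPM in 1 day animals (log2 0.31, SE 0.11, edgeR adjusted p = 0.131), with 9 of 10 CsA values above the 1 day median.

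The 2 lower miRNAs of the 10 were miR-126-5p and let-7g. miR-126-5p, an arm of the miRNA encoded in the endothelial gene EGFL7, had 337.5, 384.4 and 509.5 CPM (lowest, median and highest) in CsA animals, against 401.9, 495.7 and 801.8 CPM in 1 day animals (log2 -0.44, SE 0.13, edgeR adjusted p = 0.108). The CsA values were narrowly spread and 9 of 10 lay below the 1 day median. let-7g, a member of the let-7 family that accumulates as cells differentiate, had 25733, 31235 and 47370 CPM in CsA animals and 32183, 36877 and 50875 CPM in 1 day animals (log2 -0.25, SE 0.09, edgeR adjusted p = 0.131). The highest CsA value, in replicate 1, stood well above the next, 34485 CPM.

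**Figure D2:**
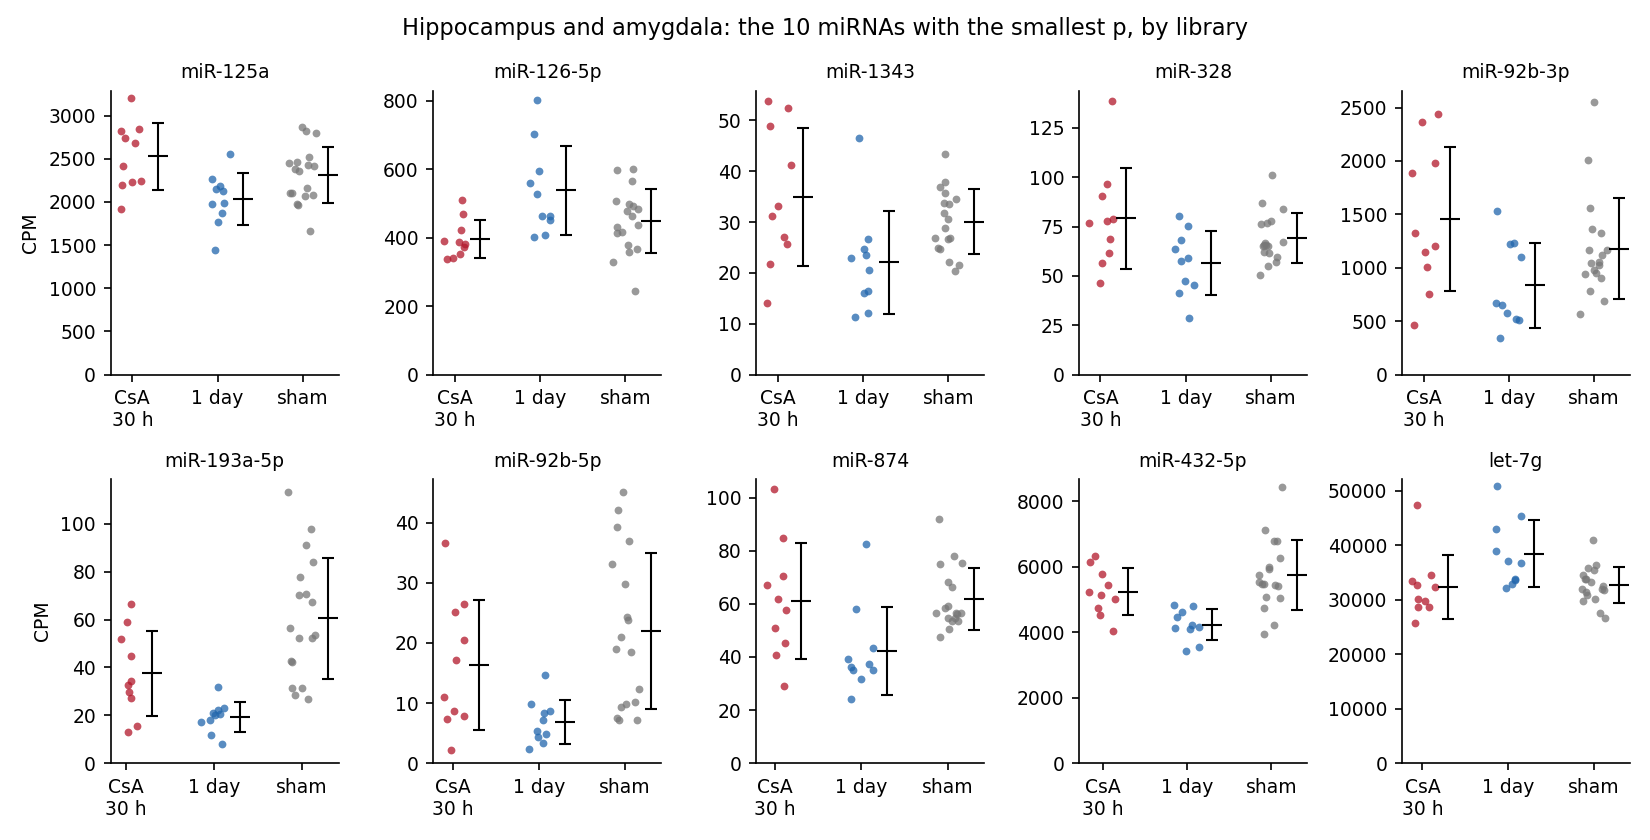
Levels (CPM, linear axes from 0) of the 10 miRNAs with the smallest p and at least 10 CPM in each CsA (30 h), 1 day and sham library of the hippocampus and amygdala; points are libraries, and bars are mean ± SD (n = 10, 10 and 18). The CsA and 1 day points overlap in every panel, for example from 1921 to 3203 CPM with CsA and from 1448 to 2559 CPM at 1 day for miR-125a.

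A panel of miRNAs known from injured brain, chosen for their cell types and roles with earlier results of these data known, held no call. miR-21-5p, which rises in glia after injury in rodents, had 71.7, 105.3 and 126.9 CPM (lowest, median and highest) with CsA, against 83.7, 134.4 and 200.6 CPM at 1 day (log2 -0.39, SE 0.14, edgeR adjusted p = 0.131). All 10 CsA values lay below the 1 day median, which held for 9 of the 299 miRNAs, and for 7 all lay above it. miR-126-3p, the other arm of miR-126, was at 4092 ± 376.8 CPM with CsA and 4989 ± 700.9 CPM at 1 day (SD, n = 10 each; log2 -0.29, SE 0.10, edgeR adjusted p = 0.131), again with all 10 CsA values below the 1 day median. It passed in DESeq2 (adjusted p = 0.0499) and without CsA replicate 1 (edgeR adjusted p = 0.0434).

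Apart from miR-21-5p, the inflammatory and leukocyte members of the panel described next had intervals that included 0. miR-155-5p, made in activated macrophages, microglia and lymphocytes, averaged 212.6 ± 20.3 CPM with CsA and 236.3 ± 30.7 CPM at 1 day (log2 -0.15, 95% interval -0.34 to 0.04). For miR-142-5p, a miRNA of blood-derived cells, the means were 28.5 ± 7.14 CPM with CsA and 34.5 ± 9.41 CPM at 1 day (log2 -0.28, 95% interval -0.63 to 0.08), and for its other arm, miR-142-3p, both were 26.7 CPM (log2 -0.00, 95% interval -0.45 to 0.44). Myeloid miR-223 ran from 4.21 to 11.0 CPM with CsA and from 5.55 to 13.0 CPM at 1 day (log2 -0.29, SE 0.21). miR-146a-5p and miR-146b, which are induced by NF-kB signalling, averaged 1.35 and 9.63 CPM with CsA and 1.42 and 8.78 CPM at 1 day, with log2 differences of -0.09 and 0.13.

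Neuronal and glial members differed little. miR-124a, the neuron-specific miRNA, averaged 7683 ± 1853 CPM with CsA and 6727 ± 1505 CPM at 1 day (SD, n = 10 each; log2 0.19, 95% interval -0.07 to 0.45). miR-9, expressed in the neural lineage from progenitors on and deposited under 3 names with nearly the same counts, averaged 12030 ± 2738 CPM with CsA and 14221 ± 2725 CPM at 1 day (log2 -0.24, 95% interval -0.57 to 0.08). miR-132 and miR-212, made from a transcript that the activity-dependent factor CREB switches on, gave log2 differences of -0.04 and -0.10, with means of 103.1 and 11.2 CPM with CsA and 106 and 12.0 CPM at 1 day. The oligodendrocyte miRNAs miR-338 and miR-219b-3p gave -0.18 and -0.13, and hypoxia-induced miR-210 gave -0.03, at 45.2 ± 8.09 CPM with CsA and 46.2 ± 9.02 CPM at 1 day. Red-cell miR-486 was at 210.1 ± 92.0 CPM with CsA and 148 ± 47.4 CPM at 1 day (log2 0.51, SE 0.21, edgeR adjusted p = 0.131), while miR-451, the defining red-cell miRNA, was at 4.35 ± 3.32 CPM with CsA and 5.01 ± 4.02 CPM at 1 day (log2 -0.21, SE 0.54).

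A list of miRNAs linked to calcineurin and NFAT, the pathway that CsA acts on, was chosen with earlier results of these data known. Whether the pathway acted on these miRNAs here was not tested. None of the 6 tested passed the threshold, and 3 had an unadjusted p under 0.05, all lower with CsA. Every member had a log2 fold change below 0, with a median of -0.33, against a median of -0.03 and 163 of 299 (54.5%) below 0 among all miRNAs tested. The counts of the other lists stand against the same shares, 54.5% below 0, 23.7% at an unadjusted p under 0.05 and 10.7% lower at that p. miR-199b-5p, which in mouse heart is induced by calcineurin and NFAT, averaged 6.92 ± 1.91 CPM with CsA and 10.2 ± 3.70 CPM at 1 day (SD, n = 10 each; log2 -0.55, SE 0.23, edgeR adjusted p = 0.131). miR-199a-3p, whose counts cannot be told from those of miR-199b-3p, had 21.5, 25.8 and 33.5 CPM (lowest, median and highest) with CsA and 24.3, 32.3 and 50.2 CPM at 1 day (log2 -0.41, SE 0.17, edgeR adjusted p = 0.134). miR-23a, the third with an unadjusted p under 0.05, averaged 68.0 ± 15.8 CPM with CsA and 81.3 ± 11.0 CPM at 1 day (log2 -0.26, SE 0.12). The remaining members are miR-155-5p, miR-1 and miR-133a-3p. miR-1 gave -0.43, and -0.15 without 1 day replicate 2. The list's median was -0.40 among animals with codes beginning 11 and -0.19 among those beginning 12 or 13.

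Both miR-199 entries also stand on the list for smooth muscle and pericytes, the contractile cells of the vessel wall, which had the lowest median of the lists with 3 or more members tested, -0.41. There 6 of 7 members were below 0, and 4 had an unadjusted p under 0.05, all lower with CsA. The list's summed level ran from 2024 to 3464 CPM with CsA, median 2197, and from 2146 to 6091 CPM at 1 day, median 2960. Nearly all of it was miR-143-3p, a smooth muscle miRNA that also stands on the astrocyte list, with 1920, 2057 and 3287 CPM (lowest, median and highest) in CsA animals and 2023, 2806 and 5872 CPM in 1 day animals (log2 -0.38, SE 0.18, edgeR adjusted p = 0.181). Without 1 day replicate 2 it was -0.24. miR-145-5p, its partner from the same transcript, did not differ in that direction, at 96.7 ± 20.5 CPM with CsA and 91.8 ± 22.6 CPM at 1 day (log2 0.08, SE 0.15). The other arm, miR-145-3p, gave the list's lowest log2 difference, -0.59, at a median of 27.5 counts in the 20 libraries. It was named after its values were seen and is not among the 101 followed in the closing checks. miR-199a-5p was low, at 4.14 ± 1.24 CPM with CsA and 5.86 ± 1.93 CPM at 1 day (log2 -0.50, SE 0.22).

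The endothelial list showed no common direction. Both arms of miR-126 were lower with CsA, as given above, but 5 of 8 members were above 0 and the median was 0.01. miR-222, an endothelial and proliferation-linked miRNA, had 26.4, 32.1 and 40.2 CPM (lowest, median and highest) with CsA and 18.6, 26.4 and 32.9 CPM at 1 day, with all 10 CsA values above the 1 day median (log2 0.32, SE 0.13, edgeR adjusted p = 0.131). miR-221-3p, from the same cluster, averaged 433.4 ± 44.2 CPM with CsA and 401.6 ± 56.7 CPM at 1 day (log2 0.11, SE 0.09).

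Among astrocyte-associated miRNAs, 9 of 9 were below 0, with a median of -0.26 and 4 at an unadjusted p under 0.05. These were miR-143-3p, miR-23a, miR-23b and miR-27b-3p. miR-27b-3p averaged 114.9 ± 34.1 CPM with CsA and 147 ± 20.1 CPM at 1 day (log2 -0.36, SE 0.14, edgeR adjusted p = 0.131), and miR-23b, from the same cluster, 249.6 ± 65.8 CPM with CsA and 304 ± 54.2 CPM at 1 day (log2 -0.28, SE 0.14). miR-29a-3p, the most abundant member with miR-143-3p, gave -0.12. The list's median was -0.40 among codes beginning 11 and -0.05 among codes beginning 12 or 13. Its summed level ran from 5004 to 8748 CPM with CsA and from 6162 to 11410 CPM at 1 day.

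Lists for lymphocyte activation and for the proliferation-linked miR-17-92 clusters overlap. In the first, 12 of 14 members were below 0 (median -0.19) and 3 had an unadjusted p under 0.05, miR-21-5p, miR-20a-5p and miR-18a, all lower with CsA. That is 21.4% of the list. Among all miRNAs tested, 23.7% had such a p in either direction and 10.7% were lower at that p. In the second, 10 of 11 were below 0 (median -0.29) and again 3 had an unadjusted p under 0.05, miR-20a-5p, miR-20b and miR-18a. miR-20a-5p averaged 186.5 ± 34.4 CPM with CsA and 230.3 ± 37.3 CPM at 1 day (SD, n = 10 each; log2 -0.30, SE 0.11, edgeR adjusted p = 0.131). For miR-18a all 10 CsA values lay below the 1 day median (log2 -0.37, SE 0.18), with 21.2 ± 2.64 CPM with CsA and 27.4 ± 5.02 CPM at 1 day. miR-92a, an abundant member of that cluster, was at 204.7 ± 57.3 CPM with CsA and 195.8 ± 63.0 CPM at 1 day (log2 0.06). miR-181a and miR-31, the most abundant on the lymphocyte list, gave -0.12 and -0.23.

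The list of leukocyte markers gave little sign of a difference at this depth. None of 7 had an unadjusted p under 0.05, the median was -0.07, and the summed level ran from 837.7 to 1348 CPM with CsA and from 729 to 1185 CPM at 1 day. miR-342 and miR-150, the most abundant members of the list, gave 0.11 and 0.09. Of 8 microglia and inflammation miRNAs, 6 were below 0 (median -0.12), with miR-21-5p lower and miR-125b higher at an unadjusted p under 0.05. Of 4 red-cell miRNAs, miR-486 had an unadjusted p under 0.05 and the median was -0.01.

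Of 11 neuron-enriched miRNAs, counting the miR-9 entries once, 8 were below 0 with a median of -0.12, and 2 had an unadjusted p under 0.05. miR-137, which acts in neuronal maturation, had 748.2, 1280 and 1462 CPM (lowest, median and highest) with CsA and 1119, 1447 and 2178 CPM at 1 day (log2 -0.38, SE 0.15, edgeR adjusted p = 0.131). miR-7-5p had 7392, 10991 and 19885 CPM with CsA and 9886, 15573 and 22873 CPM at 1 day (log2 -0.35, SE 0.16, edgeR adjusted p = 0.18). miR-128 and miR-138, abundant neuronal miRNAs, gave 0.04 and -0.16. None of the 3 oligodendrocyte and 3 activity-responsive miRNAs had an unadjusted p under 0.05.

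Markers of other tissues were followed in case such tissue was brought along at dissection, which was not tested. Choroid plexus and epithelial miRNAs varied widely among animals of both groups, with a summed level from 266.1 to 1489 CPM with CsA and from 227.5 to 2461 CPM at 1 day. miR-204, typical of choroid plexus, had 147.1, 279 and 968 CPM (lowest, median and highest) with CsA and 192.1, 588 and 1623 CPM at 1 day (log2 -0.80, SE 0.51, edgeR adjusted p = 0.347). Its log2 difference was -0.01 among codes beginning 11, -1.60 among codes beginning 12 or 13 and -0.53 without 1 day replicate 8. The median of the 5 tested members of that list was 0.66 among codes beginning 11 and -0.82 among the others. Skeletal and heart muscle miRNAs summed to 93.6 to 163.5 CPM with CsA and 100.7 to 253.8 CPM at 1 day, led by miR-1 and miR-206, and cardiac miR-208b had at most 5 counts in any of the 20 libraries. Liver miR-122-5p was at 35.8 ± 8.14 CPM with CsA and 44.8 ± 12.7 CPM at 1 day, and the liver and kidney miRNA miR-192 had at most 7 counts. The part of these tissues in any result was not tested.

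Lists tied to the drug's mitochondrial action and to cell death gave no call. Of 8 mitochondria-associated miRNAs, 7 were below 0 (median -0.12). The exception, miR-149, an abundant miRNA, had 6554, 10210 and 15031 CPM (lowest, median and highest) with CsA and 5513, 8929 and 10249 CPM at 1 day (log2 0.31, SE 0.12, edgeR adjusted p = 0.131). Of 8 miRNAs linked to p53 and cell death, 7 were below 0 (median -0.25), with miR-16, which acts on the BCL2 message, at 5572 ± 573.5 CPM with CsA and 6598 ± 788.2 CPM at 1 day (log2 -0.24, SE 0.09, edgeR adjusted p = 0.131). miR-149 and miR-16 both passed without CsA replicate 1 and in DESeq2. Of 24 miRNAs reported in traumatic brain injury, 20 were below 0 (median -0.18). At an unadjusted p under 0.05 there were 5 (20.8%), all lower with CsA. Among all miRNAs tested, 23.7% had such a p in either direction and 10.7% were lower at that p. The list's median was -0.28 among codes beginning 11 and -0.00 among the others.

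Families and clusters were not uniform. Of 6 members of the miR-99/100 and miR-125 families, 3 had an unadjusted p under 0.05, all higher with CsA, and the median was 0.17. Besides miR-125a these were miR-125b, at 6516 ± 1065 CPM with CsA and 5692 ± 492 CPM at 1 day (log2 0.20, SE 0.08, edgeR adjusted p = 0.131), and miR-99b (log2 0.28, SE 0.11), which lies in the same cluster as miR-125a. miR-99a-5p and miR-100 gave -0.06 and -0.07. In the let-7 family let-7c, with let-7a the most abundant member by mean level, had 214052, 285069 and 422815 CPM (lowest, median and highest) with CsA and 190344, 242813 and 298736 CPM at 1 day (log2 0.35, SE 0.16, edgeR adjusted p = 0.181), while let-7g and miR-98 were lower (log2 -0.25 and -0.24) and let-7a gave 0.04. Because let-7 sequences differ by few bases, reads may be split among the names, and the value of any single member is uncertain. In the miR-30 family 6 of 10 were below 0, among them miR-30e-5p at 2233 ± 342.6 CPM with CsA and 2729 ± 476.3 CPM at 1 day (log2 -0.29, SE 0.10, edgeR adjusted p = 0.131). Of 9 members of the families of miR-15, miR-16, miR-103 and miR-107, 8 were below 0 (median -0.20). None of 5 miR-181 and 3 miR-29 members had an unadjusted p under 0.05. In the DLK1-DIO3 cluster 11 of 18 were above 0 (median 0.04), and miR-432-5p and miR-493-5p, at 3.74 ± 0.828 CPM with CsA and 2.45 ± 0.694 CPM at 1 day, were higher at an unadjusted p under 0.05.

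**Figure D3:**
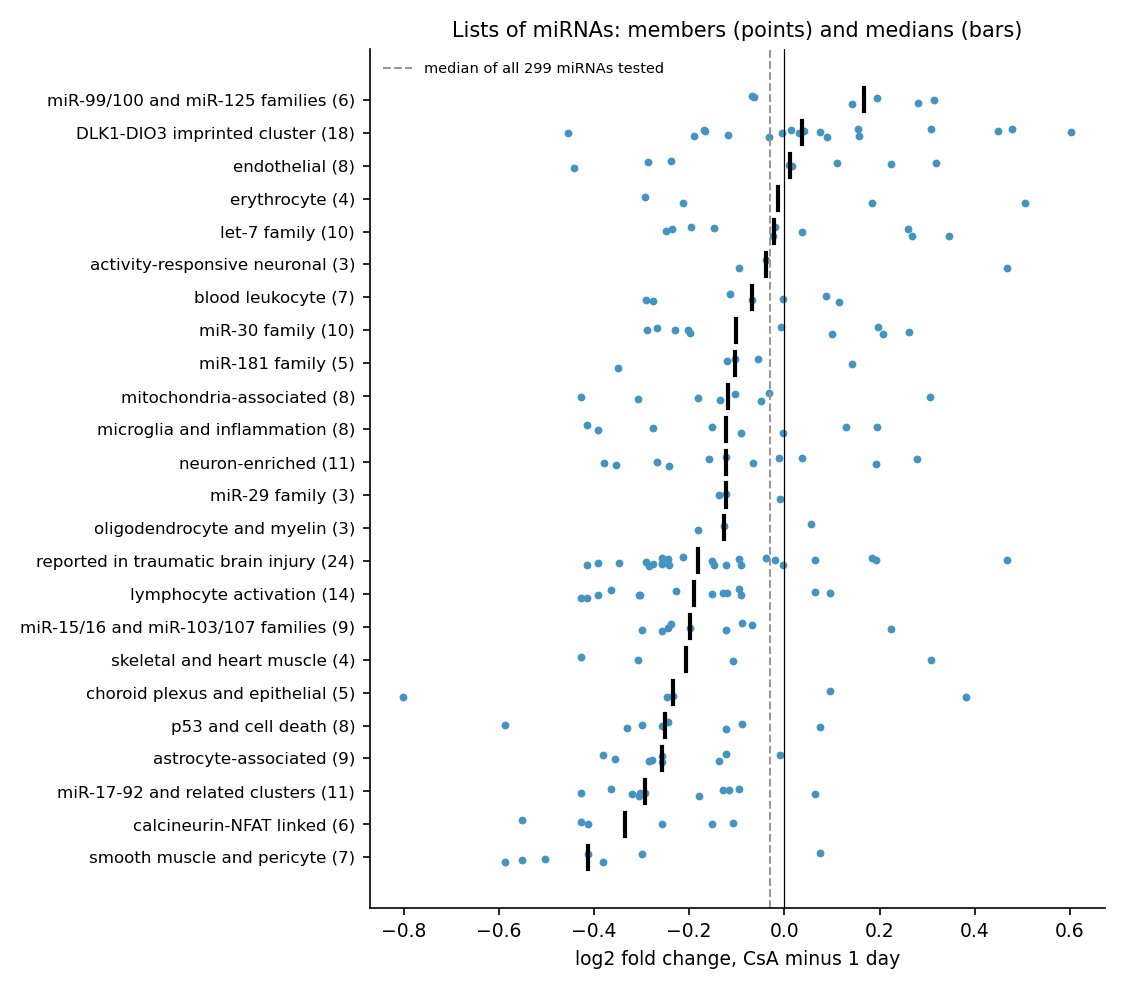
Log2 fold changes, CsA minus 1 day, of the tested members (points) of each list with at least 3 of them, with the list's median (black bar) and the median of all 299 miRNAs (dashed line, -0.03); the number tested follows each list's name. Medians ran from -0.41 for smooth muscle and pericytes to 0.17 for the miR-99/100 and miR-125 families.

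The animals fall into sets by the first digits of the code in the library name, whose meaning no label explains. Each group held 5 animals with codes beginning 11 and 5 with codes beginning 12 or 13, so the comparison was repeated within each set. The second set was not balanced: its codes beginning 13 were those of CsA replicate 1 and of 1 day replicates 3, 6 and 10. A difference between codes 12 and 13 cannot be fully told apart from CsA there. Among codes beginning 11, edgeR called 10 of 285 miRNAs (3.51%), 7 higher (2.46%) and 3 lower (1.05%), with 72 at an unadjusted p under 0.05 (25.3%). Among codes beginning 12 or 13 it called 0 of 287 (0%), with 25 at an unadjusted p under 0.05 (8.71%) and a smallest adjusted p of 0.371. The difference between the sets was not tested. The 10 were miR-125a, miR-1343, miR-193a-5p, both arms of miR-92b, miR-671-3p and miR-769-3p, which were higher, and miR-27b-3p, miR-365-3p and miR-660, which were lower.

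The sizes in the sets are given side by side. miR-92b-3p gave 1.60 among codes beginning 11 (edgeR adjusted p = 0.0162) and 0.34 among codes beginning 12 or 13 (adjusted p = 0.727), and miR-92b-5p gave 2.21 and 0.58 in these sets. In the same sets miR-193a-5p gave 1.29 and 0.77, and miR-125a 0.53 and 0.22. miR-126-5p gave -0.31 and -0.47, and miR-432-5p 0.32 and 0.42. miR-660 gave -0.72 among codes beginning 11 and -0.01 among the others. The let-7 share was 75.1% ± 2.93 with CsA and 71.1% ± 2.34 at 1 day among codes beginning 11 (exact permutation p = 0.0476, n = 5 each), and 71.6% ± 3.26 with CsA and 70.8% ± 2.07 at 1 day among the others (exact permutation p = 0.706, n = 5 each). The sets were not tested against each other for this share, and its part in the differences was not tested. Over the 281 miRNAs tested in both sets, which hold different animals, log2 fold changes had Pearson r 0.419 and Spearman rho 0.478 across miRNAs, and 192 (68.3%) had the same sign; miRNAs are not independent replicates, and they share normalization factors within a set.

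**Figure D4:**
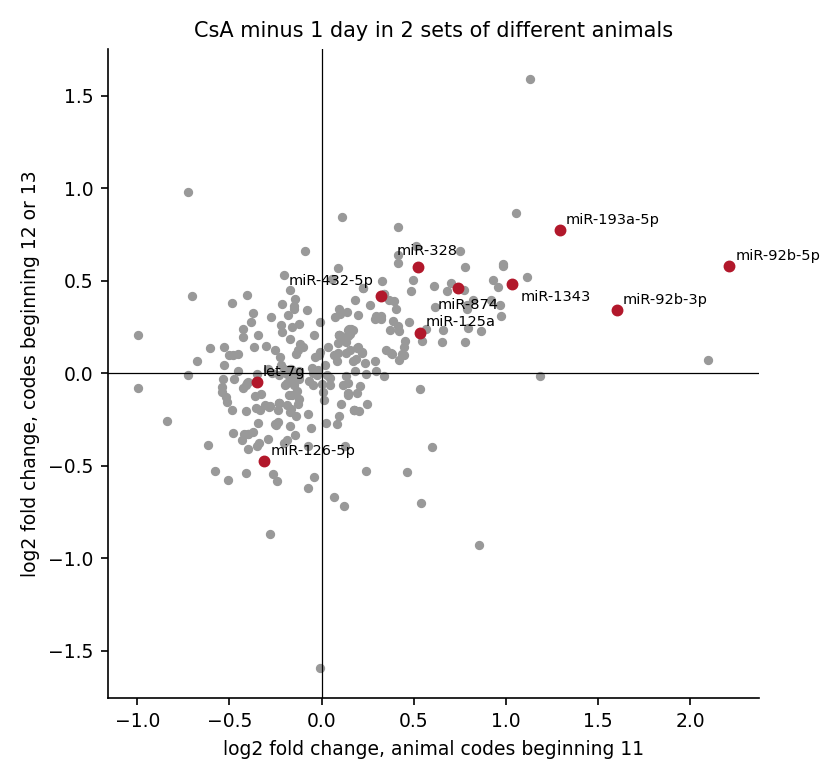
Log2 fold change, CsA minus 1 day, among animals with codes beginning 12 or 13 (vertical axis) against codes beginning 11 (horizontal axis), 5 and 5 animals in each set, for 281 miRNAs; red points are the 10 miRNAs with the smallest p over all animals. All 10 lie on the same side of 0 in both sets, and of these, miR-92b-5p lies farthest from the diagonal at 2.21 and 0.58; the side was partly fixed by choosing these 10 on all animals.

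A CsA and a 1 day animal shared the whole code before the hyphen in 2 cases. In the pair with a code beginning 11, the log2 ratio of the CsA animal over the 1 day animal was 1.73 for miR-92b-3p, 1.68 for miR-193a-5p, 0.62 for miR-125a and -0.45 for miR-126-5p. In the pair with a code beginning 12 it was 0.56, 0.35, 0.26 and -0.92. These miRNAs were chosen by p on all 20 libraries, with both pairs included, so the directions were partly fixed. The 1 day animal of the first pair, replicate 1, was its group's lowest for miR-92b-3p, miR-193a-5p and miR-125a. CsA replicates 3 and 9 also shared a code, which no test took into account.

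The levels were then set beside sham. Both injured groups were compared with the same 18 sham libraries, so their differences from sham are not independent of each other. Sham totals ran from 409637 to 10115115 counts, and 7 of the 18 sham animals had codes beginning 10, 14 or 16, which no CsA or 1 day animal had, and no comparison with sham was restricted to shared codes or like totals, so the part of code and depth in them was not tested. Against sham, edgeR called 60 of 299 miRNAs in CsA animals (20.1%), 30 higher and 30 lower (10% each), and 145 in 1 day animals (48.5%), 82 higher (27.4%) and 63 lower (21.1%). With CsA, several of the miRNAs named above lay between 1 day and sham, but not all. The CsA means of miR-125a, miR-92b-3p, miR-1343 and miR-328 lay above both the 1 day and the sham means. miR-193a-5p averaged 37.5 ± 17.8 CPM with CsA (n = 10), 19.3 ± 6.35 CPM at 1 day (n = 10) and 60.6 ± 25.4 CPM in sham animals (n = 18). Its log2 difference from sham was -0.69 with CsA (edgeR adjusted p = 0.0595) and -1.64 at 1 day (adjusted p = 3.95e-05). miR-769-3p was lower than sham in both, by -1.01 with CsA (edgeR adjusted p = 0.0066) and -1.60 at 1 day (adjusted p = 3.95e-05), as was miR-139-3p, by -0.62 and -1.26 (adjusted p = 0.0453 and 8.09e-05).

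Others had CsA means near those of sham. miR-126-3p averaged 4092 ± 376.8 CPM with CsA, 4989 ± 700.9 CPM at 1 day and 3796 ± 585.8 CPM in sham animals. Its difference from sham was 0.11 with CsA (edgeR adjusted p = 0.37) and 0.39 at 1 day (adjusted p = 0.000299). miR-21-5p was at 103.8 CPM with CsA, 136.2 CPM at 1 day and 102.1 CPM in sham animals, with differences from sham of 0.02 with CsA (edgeR adjusted p = 0.903) and 0.42 at 1 day (adjusted p = 0.00593). miR-874 gave -0.02 with CsA (edgeR adjusted p = 0.919) and -0.55 at 1 day (adjusted p = 0.00508), and let-7g -0.02 and 0.23 (adjusted p = 0.895 and 0.00908). miR-9 was above sham in both, by 0.48 with CsA (edgeR adjusted p = 0.0135) and 0.72 at 1 day (adjusted p = 9.87e-05), as did miR-212, by 0.82 and 0.92 (adjusted p = 0.017 and 0.00284). A call in only 1 of the 2 comparisons with sham does not show that the injured groups differ, and their direct comparison passed for none of these miRNAs.

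The frontal lobe of the same animals (9 CsA and 10 at 1 day) gave the same contrast in tissue from another region. edgeR called 0 of 293 miRNAs there (0%), with 5 at an unadjusted p under 0.05 (1.71%) and a smallest adjusted p of 0.959. Over the 289 miRNAs tested in both regions, log2 fold changes had Pearson r 0.508 across miRNAs and 195 had the same sign, in regions that share animals. In the frontal lobe miR-92b-5p gave 0.79 (SE 0.45), miR-193a-5p 0.56 (SE 0.40), miR-92b-3p 0.40 (SE 0.30) and miR-328 0.29 (SE 0.17), and miR-125a gave 0.04 (SE 0.12).

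A fit with the animal as a term tested whether the regions differed, hippocampus and amygdala minus frontal lobe, in 19 animals with both. No miRNA of 301 passed in edgeR (0%; smallest adjusted p = 0.562), and 20 had an unadjusted p under 0.05 (6.64%). The smallest p was that of miR-222, for which the CsA minus 1 day difference was 0.32 in the hippocampus and amygdala and -0.09 in the frontal lobe (interaction 0.47, SE 0.15, from the joint fit of these 19 animals). miR-126-5p gave -0.44 and 0.14 in the 2 regions (interaction -0.48, SE 0.22), miR-137 gave -0.38 and 0.18 (interaction -0.44, SE 0.18), and miR-1, a muscle miRNA, gave -0.43, or -0.15 without 1 day replicate 2, and 0.48 (interaction -0.71, SE 0.28). None of these passed (edgeR adjusted p = 0.562 for each).

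**Figure D5:**
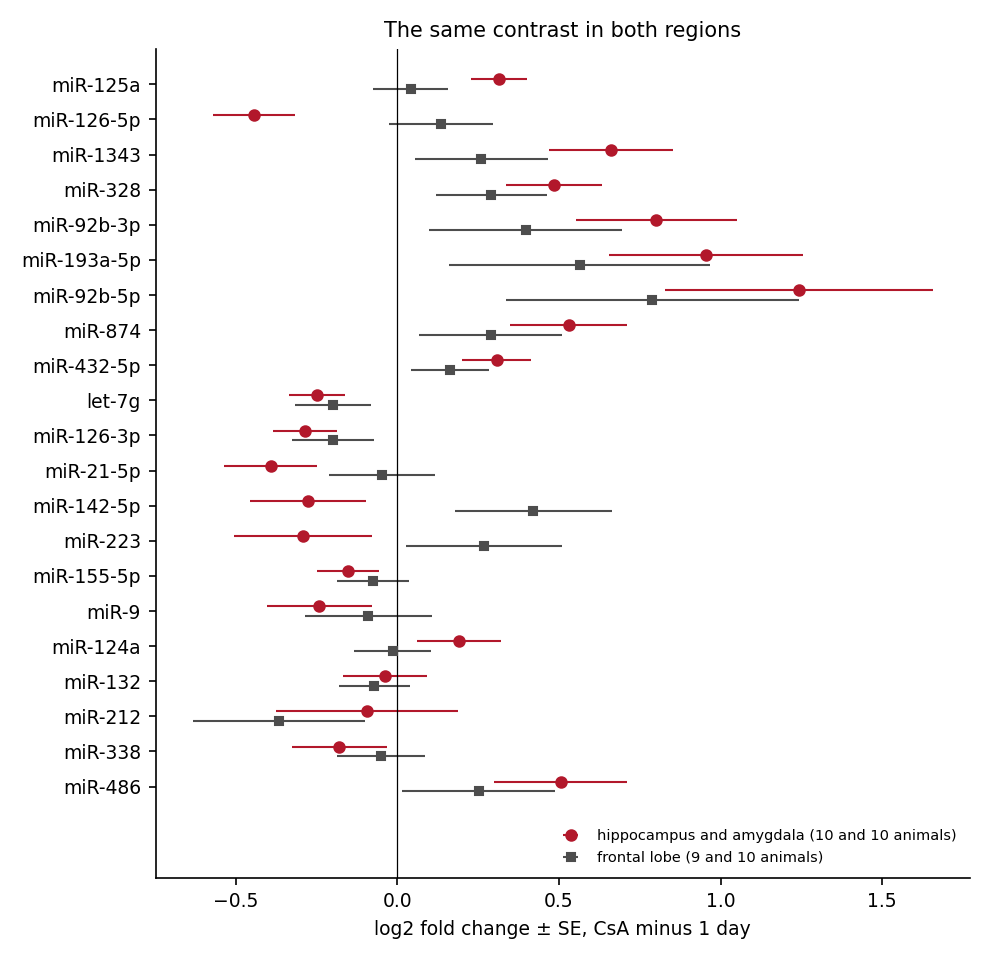
Log2 fold change ± SE, CsA minus 1 day, in the hippocampus and amygdala (circles, 10 and 10 animals) and in the frontal lobe (squares, 9 and 10 animals) for the 10 miRNAs with the smallest p and 11 of the panel. miR-126-5p lay at -0.44 and 0.14, and no difference between the regions passed after adjustment.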

How the data were processed

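Libraries of small RNA came from fixed brain tissue by the QIAseq miRNA kit, per the labels' protocols. The values deposited by the authors are raw counts, whole numbers for each porcine mature miRNA in each library. Trimmomatic 0.39 and cutadapt 1.9.1 were used, per the submitters' processing notes; no source used here names the aligner, the annotation or whether molecular identifiers were counted, so counts may not be independent molecules. Of 542 deposited entries 89 were 0 throughout; entries of the same mature name were reduced to the one with the highest total, leaving 457 names. All columns were mapped to samples by title. No pair of libraries agreed within sampling noise (smallest chi-square 14933 on 300 degrees of freedom).

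The 53 hippocampus and amygdala libraries entered one edgeR 4.0.16 quasi-likelihood fit (R 4.3.3) of 4 groups with TMM scaling, robust estimation and the default filterByExpr filter (count 10, total 15), and p-values were adjusted by Benjamini-Hochberg at 0.05. DESeq2 1.42.0 and limma 3.58.1 voom, other scalings, filters, code sets and omitted libraries were alternatives. The region difference was fitted with the animal as a term. Totals and let-7 shares were compared by 2-sided permutation tests (100000 resamples, or exact with 5 against 5) in scipy 1.17.1. The scripts were tested on simulated data. Log2 ratios of single pairs used a pseudocount of 0.5 CPM.

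Named miRNAs are those past the threshold with at least 10 CPM in either group, here none, then the 10 with the smallest p, a panel, and the 2 most abundant members of each list; others were named after their values were seen. In lists, entries with nearly the same counts (totals of 100 or more whose summed differences stayed under 0.01 of the total) were counted once. The members and lists were chosen with earlier results of these data known. Sequences and coordinates of miRNAs were not used here.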

Additional observations from a re-analysis of the deposited data

Results flagged for a closer look

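Values of the miRNAs named, totals and let-7 shares made 206 sets of 10 (CsA or 1 day). In 19, a single library stood apart from the other 9 by Dixon's ratio above 0.466. For normally distributed values chance flags about 1 in 20 sets. The CPM here were not log-transformed and the sets share libraries, so that rate need not hold. Of the 19, 3 are entries of miR-9 with nearly the same counts. In CsA animals, replicate 1 was highest for let-7g (47370 CPM, next 34485) and for miR-9, miR-9-1 and miR-9-2 (19327 CPM each, next 13404). Replicate 5 was highest for miR-125b (9079 CPM) and miR-204 (968 CPM), replicate 4 highest for miR-184 (144.1 CPM), and replicate 8 lowest for miR-137 (748.2 CPM, next 1115).

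In 1 day animals, replicate 10 was highest for miR-150 (135.7 CPM), miR-181a (8498 CPM), miR-99a-5p (5720 CPM, next 3128), miR-100 (4448 CPM, next 2225) and miR-33b-5p (4.86 CPM, next 0.589). Replicate 2 was highest for miR-146b (20.1 CPM), miR-143-3p (5872 CPM, next 3967) and miR-1 (164.2 CPM, next 86.9). Replicate 1 was highest for miR-95 (3193 CPM) and lowest for miR-493-5p (0.767 CPM, next 2.03). Replicate 6 was highest for miR-1343 (46.5 CPM, next 26.7), whose log2 difference was 0.85 without it, against 0.66 with it.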

How the results depend on the processing

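With edgeR, 0 miRNAs were called under RLE factors, no filter, a minimum of 10 CPM, the 20 libraries alone and all deposited entries. The same held for near-identical names merged, counts without let-7 and no robust estimation. It held too with the code (beginning 11 or not) or the log10 total as a covariate. limma voom also called 0. DESeq2 called 13 and codes beginning 11 gave 10, and leaving out single libraries gave 0 to 20. The count at an unadjusted p under 0.05, 71, was 72 among codes beginning 11 and 25 among codes beginning 12 or 13, with 5 against 5 animals in each, and 49 to 89 when single libraries were left out. The difference in let-7 share was 4.01 points among codes beginning 11. The region interaction called 0 with edgeR under RLE factors as well.

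Of 101 named miRNAs, 26 changed sign somewhere; none was called in the full comparison, and the cause was not tested. Among codes beginning 12 or 13 the log2 fold change was 0.0233 for miR-155-5p, 0.0968 for miR-142-5p, 0.14 for miR-223, 0.20 for miR-212, 0.42 for miR-132, 0.0861 for miR-210, 0.21 for miR-146a-5p, -0.00389 for miR-219a, 0.0451 for miR-29a-3p, 0.000832 for miR-24-3p, 0.0217 for miR-103, 0.21 for miR-365-3p, 0.14 for miR-138 and 0.36 for miR-142-3p. Among codes beginning 11 it was -0.21 for miR-146b, -0.0108 for miR-150, -0.17 for miR-145-5p, 0.85 for miR-34c, 0.11 for miR-181b, 0.14 for miR-99a-5p and 0.14 for miR-100. miR-34c gave 0.58 with limma voom. miR-142-3p, at -0.00 in the full comparison, gave 0.0070 with RLE factors, 0.0657 with voom, 0.000517 without a filter, 0.00238 with at least 10 CPM, 0.0130 in the 20 libraries alone, 0.0211 with all entries, 0.0144 without let-7, 0.0623 with the code and 0.00359 with the log10 total as covariates.

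With single libraries left out, miR-146b ranged from -0.0297 to 0.35, miR-451 from -0.48 to 0.0995, miR-132 from -0.14 to 0.000642, miR-210 from -0.0958 to 0.00881, miR-146a-5p from -0.27 to 0.12, miR-219a from -0.0605 to 0.17, miR-142-3p from -0.10 to 0.12, miR-145-5p from -0.00918 to 0.14, miR-181a from -0.18 to 0.0532, let-7a from -0.0192 to 0.0568, miR-181b from -0.13 to 0.0869, miR-99a-5p from -0.13 to 0.0865, miR-92a from -0.00927 to 0.17, miR-128 from -0.0170 to 0.0512 and miR-100 from -0.12 to 0.10.

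No paired analysis was possible because the labels give CsA and 1 day animals no shared replicate number; a code before the hyphen is shared in only 2 cases, whose ratios are given as values. Library totals did not differ detectably between the groups, and the median SE of 0.18 limits what could be called.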
